A study of Mus musculus with 2 samples.

Results

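Divergent promoters were examined in a map of DNase I hypersensitive sites (DHS) of mouse splenic B cells. A divergent, or head-to-head, pair was taken as 2 protein-coding genes on opposite strands whose transcription start sites (TSSs) lie back to back, the minus-strand TSS to the left and the plus-strand TSS to the right, at most 1 kb apart. By the gene records of GENCODE M1 on the mm9 build, chromosomes 1 to 19 hold 789 such pairs of 1562 genes, of which 16 belong to more than one pair. A DHS belonged to the set when it covered at least 1 TSS of a pair. This was so for 737 of the 47542 DHS in the list, or 1.58% of the 46610 on chromosomes 1 to 19.

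The cells came from Trp53+/+ mice of the C57/Bl6 strain, aged 8 weeks, whose treatment is labelled mock. They were enriched from spleen on magnetic beads against B220, a B cell form of the CD45 surface protein. There was 1 DNaseI library and 1 input library, without replicates, and the peak list describes the former. All comparisons below are therefore between regions of a single library, without p-values. Intervals are at the 95% level and cover counting error only.

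DNase I cuts DNA where nucleosomes are absent or displaced, so DHS mark promoters, enhancers and other regulatory elements. In a head-to-head pair the DNA between the TSSs serves as promoter for both genes, and in mammals such promoters are mostly rich in CpG and short of TATA elements. Genes of DNA repair, the ribosome, the mitochondrion and the replication-dependent histones are well known among these pairs.

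The cell type was checked by the TSSs of marker genes on the same chromosomes. All 10 B cell markers had a DHS over the TSS, Cd79a, Cd79b, Ms4a1 and Pax5 among them, with scores of 45.36 to 215.77. A DHS covered 2 of 10 T cell markers (Lck and Il7r, with scores of 41.42 to 42.06) and 1 of 9 myeloid markers (Cd14, 51.05), and none was called at Cd3e, Csf1r or Klf1. Each peak carries a score given by the authors, whose scale is unstated and whose median was 32.65 on these chromosomes.

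Sequences of the stretch from TSS to TSS are shown for 4 long-known pairs whose TSSs lay under a single DHS. They are the plus strand of mm9, read 5′ to 3′ from the minus-strand TSS to the plus-strand TSS. Capitals mark exact matches, on either strand, to any of the 10 factor words named further on.
Brca1/Nbr1, chr11:101413269-101413463: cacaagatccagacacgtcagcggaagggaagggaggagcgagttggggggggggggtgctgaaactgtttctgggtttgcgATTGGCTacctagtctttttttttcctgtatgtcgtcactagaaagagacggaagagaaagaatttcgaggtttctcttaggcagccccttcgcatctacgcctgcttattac
Wrap53/Trp53, chr11:69393757-69393861: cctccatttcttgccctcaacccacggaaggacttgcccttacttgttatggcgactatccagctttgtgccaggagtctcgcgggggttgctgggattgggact
Mrps12/Sars2, chr7:29526839-29527010: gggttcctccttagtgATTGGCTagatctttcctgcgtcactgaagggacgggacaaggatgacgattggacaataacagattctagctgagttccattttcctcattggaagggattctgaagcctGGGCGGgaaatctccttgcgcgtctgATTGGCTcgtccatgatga
Aimp2/Pms2, chr5:144670716-144670833: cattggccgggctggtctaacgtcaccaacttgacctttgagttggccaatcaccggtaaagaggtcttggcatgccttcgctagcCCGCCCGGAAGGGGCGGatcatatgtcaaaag
The Brca1/Nbr1 stretch held 1 word, the NF-Y word on the minus strand, and had a GC content of 50.8%. Mrps12/Sars2 held the NF-Y word at 2 places and the Sp1 word at 1, Aimp2/Pms2 held the Sp1 word at 2 places and the Ets word between them, overlapping the first, and Wrap53/Trp53 held none of the 10. The 4 DHS over these stretches scored 307.54, 104.99, 96.6 and 120.67 in that order, so that the stretch with no word did not have the lowest score.

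A further set shows stretches where the called signal was broken or absent, a pattern described below. These pairs were chosen after their values were seen, apart from Sdccag3/Pmpca and Eif3i/2510006D16Rik, which had the smallest spacing of at least 20 bp among pairs with 1 covered TSS and among CpG-rich pairs with no covered TSS.
Apaf1/Ikbip, chr10:90545515-90545685: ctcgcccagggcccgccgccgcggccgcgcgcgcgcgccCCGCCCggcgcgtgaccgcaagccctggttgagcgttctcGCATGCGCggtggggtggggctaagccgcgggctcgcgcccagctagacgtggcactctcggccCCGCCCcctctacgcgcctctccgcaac
Hist1h2an/Hist1h2bp, chr13:21879087-21879330: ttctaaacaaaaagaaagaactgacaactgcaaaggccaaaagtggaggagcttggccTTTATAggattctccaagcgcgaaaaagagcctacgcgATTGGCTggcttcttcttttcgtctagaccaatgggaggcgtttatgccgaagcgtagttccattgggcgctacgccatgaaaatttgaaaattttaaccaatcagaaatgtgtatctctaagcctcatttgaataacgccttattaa
Eif3k/Map4k1, chr7:29766883-29767073: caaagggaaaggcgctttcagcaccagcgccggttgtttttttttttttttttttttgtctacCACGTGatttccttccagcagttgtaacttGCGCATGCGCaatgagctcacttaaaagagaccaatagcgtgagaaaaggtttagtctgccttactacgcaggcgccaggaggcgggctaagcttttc
Sdccag3/Pmpca, chr2:26244836-26244859: cgcgGGGCGGggtcggaagcggaa
Eif3i/2510006D16Rik, chr4:129277892-129277912: tagggacgaCTTCCGGatgcg
Col4a4/Col4a3, chr1:82583424-82583496: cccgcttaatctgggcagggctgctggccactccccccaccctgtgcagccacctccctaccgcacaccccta
At Hist1h2an/Hist1h2bp the uncovered bases ran from 21879175 to 21879294, with the NF-Y word inside and the TATA word outside. The whole Apaf1/Ikbip stretch, with a GC content of 78.9%, lay inside a break from 90545508 to 90545743. Col4a4/Col4a3 held no word, and its nearest DHS was 137363 bp away.

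The first question was how often the TSSs of a pair were accessible. Both TSSs lay under a single DHS in 517 of 789 pairs (65.5%, 62.1 to 68.8). In a further 67 pairs (8.49%) each TSS lay under a DHS of its own. Only the minus-strand TSS was covered in 50 pairs and only the plus-strand TSS in 52. No TSS was covered in 103 pairs (13.1%, 10.9 to 15.6). When a single TSS was covered, it was the minus-strand TSS in 49.0% (39.5 to 58.6). Which gene of a pair is on the minus strand follows the assembly, so an even share is expected in any case.

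Of the 1562 TSSs in pairs 80.4% lay under a DHS (78.4 to 82.3), against 41.3% of all 21418 protein-coding TSSs. Part of this gap goes with base composition. TSSs counted as CpG-rich if GC made up 55% or more of the surrounding 1000 bp and CpG reached 0.6 or more of the number expected from base composition. Pairs had 2 CpG-rich TSSs in 527 cases, 1 in 95 and 0 in 167, while 39.4% of all protein-coding TSSs were CpG-rich. Among CpG-rich TSSs 82.9% of those in pairs were covered (80.6 to 85.0), against 65.1% outside pairs. Among the other TSSs the shares were 73.6% in pairs (69.3 to 77.6) and 22.6% outside. The difference between pair TSSs and other TSSs was therefore larger where the sequence was not CpG-rich. A single DHS can cover both TSSs of a pair, so the TSSs of a pair are not independent of each other.

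The share of pairs with a covered TSS differed by CpG class, without following its order. At least 1 TSS was covered in 89.2% of pairs with 2 CpG-rich TSSs (86.2 to 91.6), in 97.9% of those with 1 (92.6 to 99.4) and in 73.7% of those with 0 (66.5 to 79.7). Of the 103 pairs without a covered TSS, 57 had 2 CpG-rich TSSs, 2 had 1 and 44 had 0. Across chromosomes the share of pairs with a covered TSS ranged from 71.4% to 93.5%, and the number of DHS in the set from 14 to 59.

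Many uncovered TSSs lay in a short break between neighbouring DHS. Such a break, called a gap here, was taken as less than 500 bp between the end of one DHS and the start of the next. This was examined after the first results had been seen. A gap says only that no peak was called there, and whether it reflects the DNA or the settings of the peak caller cannot be told from the peak list. A gap lay at or between the TSSs in 175 of 789 pairs (22.2%, 19.4 to 25.2). In 67 of these the gap separated a DHS over each TSS, in 80 it held 1 TSS while the other was covered, and in 28 both TSSs lay inside 1 gap. Counted this way, only 75 pairs (9.51%, 7.65 to 11.8) had no covered TSS and no gap, and 22 pairs had 1 covered TSS with the other simply beyond the outer edge.

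**Figure D1:**
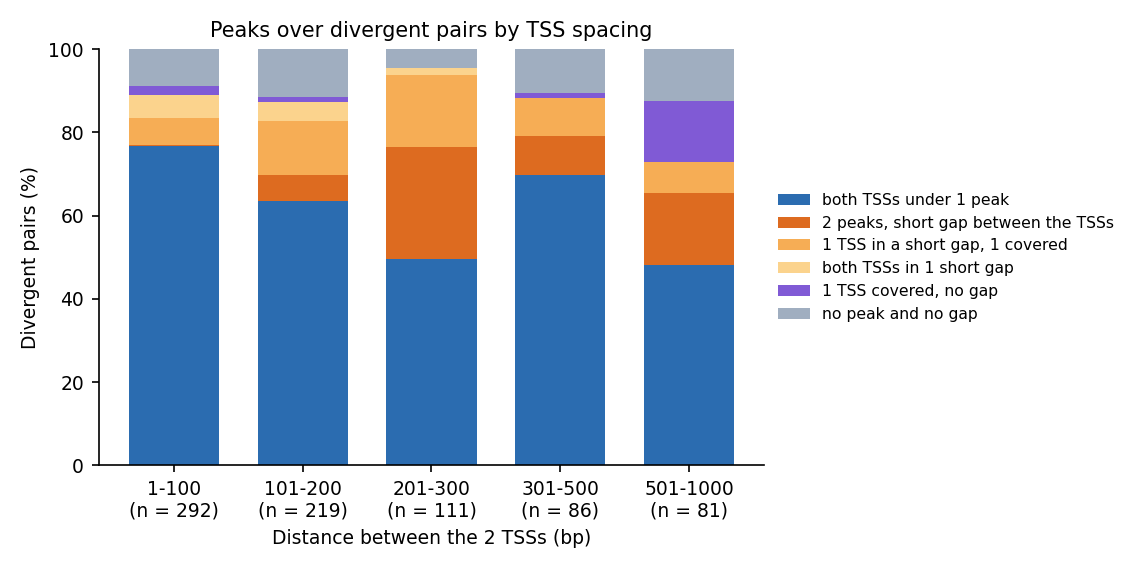
Share of divergent pairs in each state (vertical axis, percent of pairs) by the distance between the 2 TSSs (horizontal axis, bp), with the number of pairs under each bar. Pairs over 200 and up to 300 bp apart had the largest orange portions, which mark gaps under 500 bp, at 45.9% against 12.3% for pairs 1 to 100 bp apart.

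Width and position of these gaps are bounded by the way they were chosen and are given as a description. Their median width was 153 bp (135 to 173), with a range of 52 to 477 bp, and that of all 9798 gaps under 500 bp in the list was 135 bp (132 to 138). The gap centre lay between the TSSs in 142 of 175 pairs (81.1%, 74.7 to 86.2), at a median distance of 34 bp from the midpoint. The higher-scoring of the flanking DHS had a median score of 120.61 and the lower 76.27. Together with the gap the flanking DHS spanned a median of 1803 bp, against 1645 bp for the DHS that covered both TSSs in one piece. GC content was close to equal inside the gaps and in the 150 bp on either side, at medians of 63.2% and 63.3%, and it was lower inside the gap in 88 of 175 pairs.

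Gaps at the TSS were not particular to pairs. Of CpG-rich TSSs 10.1% of those in pairs lay in a gap (8.49 to 12.0) and 9.39% of those outside pairs (8.75 to 10.1). The share was 4.71% for other TSSs in pairs, 1.35% for other TSSs outside pairs, and 0.135% at positions 10 kb upstream of protein-coding TSSs. A gap needs a DHS on either side, and the shares under a DHS also fell, at 73.6%, 22.6% and 4.09% in the same order. Of the 737 DHS in the set 37.0% had a neighbour less than 500 bp away, against 29.8% of DHS over one-way CpG-rich TSSs and 39.4% of all DHS. No gap in the list was shorter than 52 bp.

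Spacing between the TSSs went with the state of the pair. The median spacing was 141 bp, with quartiles of 73 and 271 bp and a range of 1 to 987 bp. A single DHS covered both TSSs in 76.7% of pairs 1 to 100 bp apart (71.5 to 81.2), 49.5% of those over 200 and up to 300 bp apart (40.4 to 58.7) and 69.8% of those over 300 and up to 500 bp apart (59.4 to 78.5). Each TSS had a DHS of its own in 27.0% of pairs over 200 and up to 300 bp apart (19.6 to 36.0) but in 1 of 292 pairs (0.342%) at 1 to 100 bp. A pair of DHS cannot be told apart over TSSs closer than the smallest gap of 52 bp. The share of pairs with at least 1 covered TSS was highest in the class over 200 and up to 300 bp, at 93.7% (87.6 to 96.9), and 84.0% to 89.5% in the other spacing classes. On either side of the limit of 1 kb, Btf3l4/Txndc12 at 987 bp lay under 1 DHS of score 328.92 and Pdzd7/Sfxn3 at 987 bp had 1 covered TSS, while Nacc1/Trmt1 at 1004 bp, outside the rule, also had 1 covered TSS.

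The shape of the DHS was then described in the 517 pairs covered in one piece. The DHS reached a median of 725 bp past the TSS into the minus-strand gene (687 to 748) and 738 bp into the plus-strand gene (720 to 764). Its centre lay a median of 10.5 bp towards the plus-strand gene (−13.5 to 34.0). Which gene of a pair is on the plus strand follows the assembly. Near-equal median reaches and a small signed offset are therefore expected whatever the shape of single DHS. Without regard to side, the centre lay a median distance of 129 bp from the midpoint, and it fell between the TSSs in 33.7%. The longer reach of each DHS had a median of 872 bp (850 to 902) and the shorter 598 bp (585 to 612). The reaches into the genes of a pair were unrelated across pairs, with a Spearman rho of 0.0180 over 517 DHS, which share a library and are not replicates. In 40 of 517 the longer reach was at least 3 times the shorter.

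At one-way CpG-rich TSSs, which have no divergent partner and were aligned by gene direction, the DHS reached farther downstream. Over 4028 of these TSSs the DHS reached 833 bp downstream (819 to 848) and 679 bp upstream (669 to 691), and 64.8% were centred downstream of the TSS. The reach into each gene of a divergent pair thus lay between these values. The width of DHS over pairs rose with spacing, from a median of 1567 bp at 1 to 100 bp to 2151 bp at over 500 bp (rho 0.292). The sum of both reaches past the TSSs stayed between 1387 and 1554 bp in all 5 spacing classes.

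**Figure D2:**
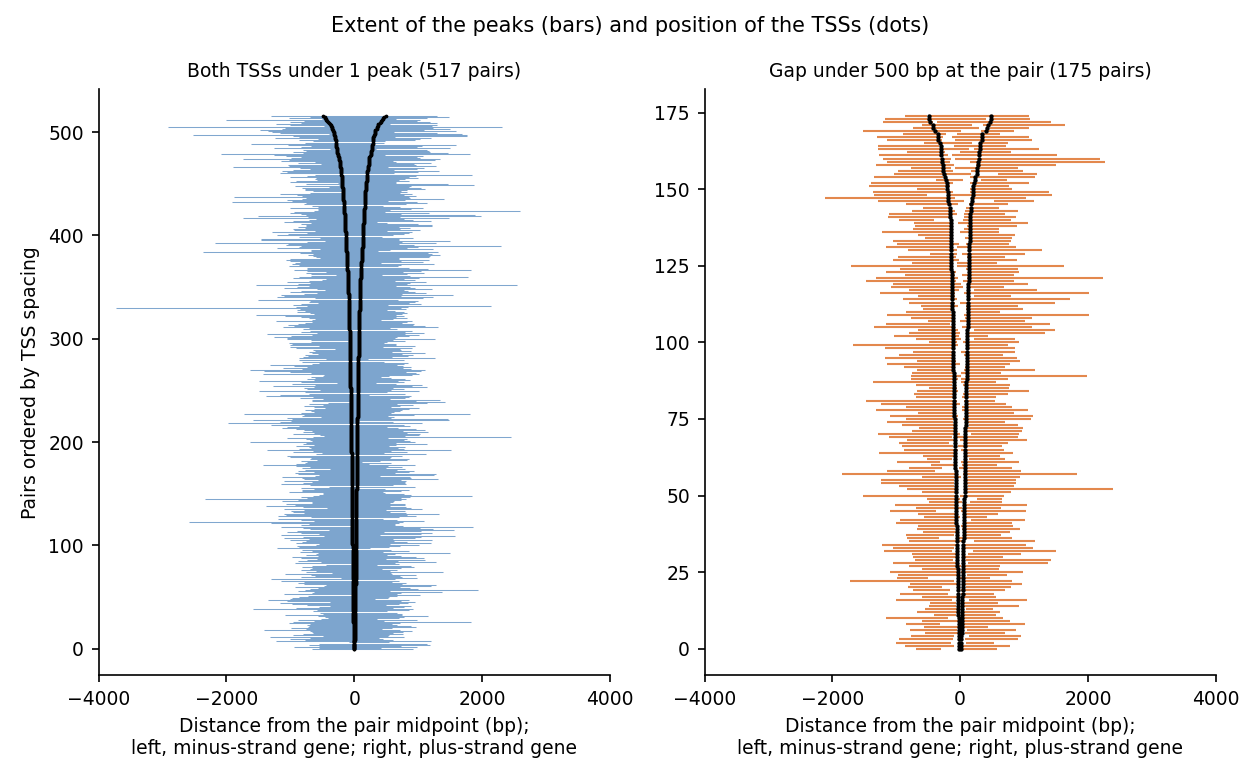
Extent of DHS (bars) and position of the TSSs (dots) relative to the pair midpoint (horizontal axis, bp), with pairs ordered by spacing (vertical axis), for 517 pairs under 1 DHS (left) and 175 pairs with a gap under 500 bp (right). On the left the bars extend a median of 725 and 738 bp past the TSSs, and on the right the break, with a median width of 153 bp, sits near the midpoint.

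The scores of DHS at divergent pairs were compared with those of other promoter DHS. Their median was 117.63 (113.57 to 122.8), at the 88.3rd percentile of all DHS on these chromosomes, where the median was 32.65, and 97.7% scored at or above the median of the list. DHS over one-way CpG-rich TSSs scored 112.91 (110.96 to 115.89, n = 4241), a difference of 4.72 whose interval, −0.512 to 9.95 from those of both medians, includes 0. Quartiles within the set were 87.8 and 159.13. The median was 109.36 (103.06 to 120.15, n = 261) where the divergent partner was a noncoding gene, and 81.63 (79.28 to 84.43, n = 2613) over TSSs that were not CpG-rich. The 88 DHS that covered unpaired TSSs of both CpG classes had a higher median, 145.725 (120.94 to 165.35), and a median width of 1742 bp. The top decile of the list held 42.6% of the set (39.1 to 46.2), 41.3% of DHS over one-way CpG-rich TSSs and 24.3% of those over TSSs that were not CpG-rich.

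The DHS of the set had a median width of 1466 bp (1413 to 1508), and those over one-way CpG-rich TSSs 1533 bp (1513 to 1554). The difference of −67.0 bp (−119 to −15.3) turned to 28.0 bp (−16.7 to 72.7) when TSSs of transcripts replaced those of gene records. Score and width went together, with a rho of 0.434 over the 737 DHS. Within the 2 middle width quartiles of the list the set scored higher than DHS over one-way CpG-rich TSSs, at 90.65 against 62.96 and at 109.46 against 88.23. In the widest quartile, which held 492 of the 737, the medians were 127.94 and 126.93. The difference in score also depended on the processing. It was −2.88 (−9.22 to 3.46) with a stricter definition of CpG-rich (GC of at least 60% and a CpG ratio of at least 0.75) and 14.81 (9.80 to 19.8) with transcript TSSs. It was 8.67 (2.26 to 15.1) with DHS under 500 bp apart merged and 5.02 (0.444 to 9.59) with a DHS within 100 bp of the TSS accepted.

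**Figure D3:**
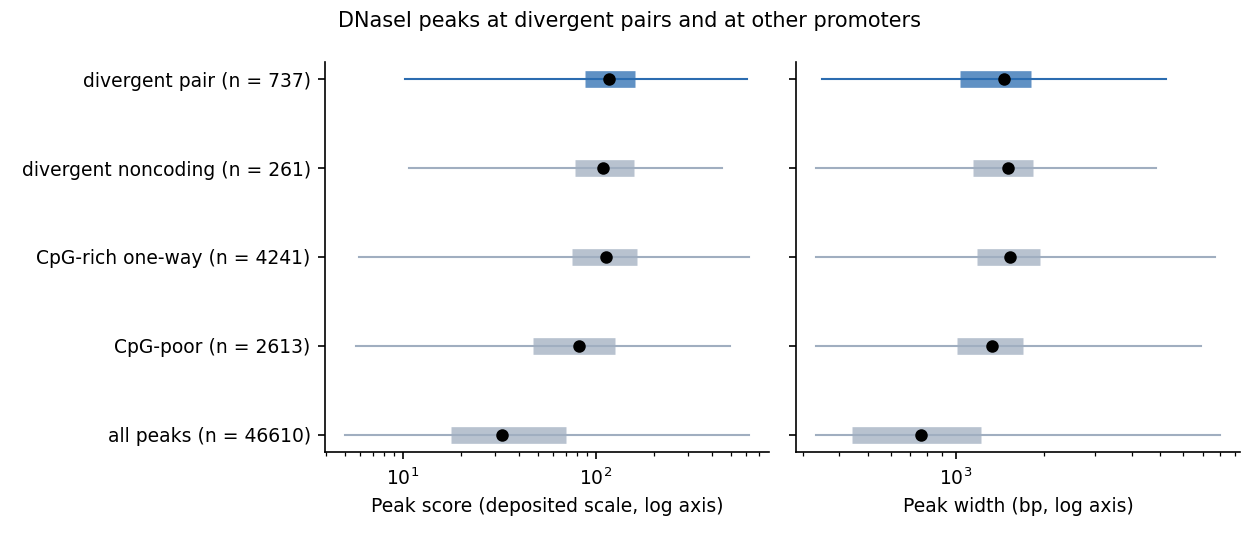
Peak score (left, authors' scale, log axis) and width (right, bp, log axis) of DHS over divergent pairs and of 4 other sets, with n beside each name; dots are medians, thick bars quartiles and thin lines the full range. The set sits at a median score of 117.63, beside 112.91 for DHS over one-way CpG-rich TSSs and 32.65 for all DHS.

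Scores differed by the state of the pair. DHS covering both TSSs had a median score of 123.69 (118.44 to 132.41). Where each TSS had its own DHS the stronger scored 135.55 (118.36 to 162.02) and the weaker 92.79 (77.59 to 99.28), and the stronger was at least 3 times the weaker in 8 of 67 pairs. Where 1 TSS was covered, the median was 99.45 (89.8 to 109.46), and the uncovered TSS lay a median of 29.5 bp from a DHS. In 90 of these 102 pairs it was within 100 bp. Pairs with 2, 1 and 0 CpG-rich TSSs had median scores of 127.94, 120.61 and 105.29, with intervals of 120.39 to 133.02, 110.17 to 138.44 and 97.74 to 117.6.

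The highest score of the set, 609.88, was at Map4k1, a kinase of blood cells that acts in antigen receptor signalling. Its DHS of 701 bp covered the Map4k1 TSS. The TSS of its partner Eif3k, a subunit of a translation initiation factor, lay in a gap of 160 bp, 25 bp from the DHS on the far side, which scored 106.79. The stretch between them, printed above, held an E-box and the NRF1 word, the latter on both strands at overlapping bases. The next 3 in order were at 4632404H12Rik/Ube2q1 (550.63), Pusl1/Acap3 (492.43) and Pcid2/Cul4a (481.89), where Ube2q1 and Cul4a are a ubiquitin-conjugating enzyme and a ubiquitin ligase scaffold. In the first and last of these 3 only the minus-strand TSS was covered, with a gap of 459 bp and 175 bp at the partner. Vmac/Ndufa11 followed, covered in one piece (469.38), and Ndufa11 is a subunit of respiratory complex I.

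The lowest score was 10.31, at Duox2/Duoxa2, a thyroid oxidase and its maturation factor, where only Duox2 was covered. The DHS of Gm10399/Vsig10 followed at 13.31 and those of Deaf1/Eps8l2 at 17.02 and 14.42. The low value at Wrn/Purg was one-sided, since the DHS over Wrn, a RecQ helicase of genome stability, scored 111.17 and the DHS over Purg 16.93. The widest DHS was at Zbtb25/Zbtb1, a pair of zinc finger regulators active in lymphocytes, at 5239 bp with a score of 206.88. Marcks/5930403N24Rik (4298 bp) and Gm10655/Tle3 (4092 bp) were also among the 5 widest.

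Long-known head-to-head pairs met the rule in 10 cases, and 9 had both TSSs covered, with limits of 59.6 and 98.2%, an interval that includes the 74.0% of all pairs. Gart/Son, a purine synthesis enzyme and a splicing protein, had the highest score of these, 427.65. Brca1/Nbr1, with the breast cancer repair gene, scored 307.54, and Mcm4/Prkdc, a replicative helicase subunit and the catalytic subunit of DNA-PK, scored 215.9. Trp53 shared its DHS with Wrap53, a gene of telomerase assembly, at a score of 120.67 and a width of 3526 bp. This DHS reached 1667 bp into Wrap53 and 1754 bp into Trp53, against medians of 725 and 738 bp over the 517 pairs. Mrps12/Sars2, of the mitochondrial ribosome and its seryl-tRNA supply, scored 104.99, and Aimp2/Pms2, with a mismatch repair gene, 96.6.

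Others of these 9 were split by a gap. Pdcd10/Serpini1 scored 257.07 and 253.01 across 134 bp and Atm/Npat 101.22 and 69.23 across 194 bp. Atm is the kinase that signals DNA breaks to p53 and Npat activates histone transcription. Col4a4/Col4a3, basement membrane collagens made mainly in kidney and other epithelia, was the pair without a DHS.

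DNA repair and replication genes formed the largest functional list, with 33 pairs. Both TSSs were covered in 29, beside 74.0% of all pairs, and 1 TSS in the other 4, and the median score was 120.39 (98.34 to 142.81) against 121.885 over all pairs (116.47 to 127.52). All 33 had a covered TSS, beside 86.9% of all pairs (84.4 to 89.1), and 29 of the 33 had a CpG-rich TSS, beside 622 of all 789 pairs. After Brca1/Nbr1, the highest were Prim2/1700001G17Rik (253.16, a primase subunit) and Mcm4/Prkdc. A gap lay at 9 of the 33, beside 22.2% of all pairs. Among them were Rpa1/Smyd4, of the single-strand binding protein RPA (70.84 and 140.91), Xrcc3/Zfyve21, with a gene of recombination repair (94.08 and 150.35), and Palb2/Dctn5, where the gap of 80 bp held the TSS of Palb2, the partner of BRCA2. Low scores in the list were those of the DHS over Purg (16.93), the partner of Wrn, and those at Rad54l/Pomgnt1 (18.87 and 45.36) and Tsc2/Nthl1 (41.24).

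Genes of the p53 pathway were in 8 pairs, of which 7 had both TSSs covered, beside 74.0% of all pairs. The share with a covered TSS, 87.5% (52.9 to 97.8), was close to the 86.9% of all pairs. Rchy1/Thap6 scored 329.72, Cep57l1/Sesn1 261.45 and Gm10517/Trp53bp2 231.66. Rchy1 encodes a ubiquitin ligase for p53, and Sesn1 a p53 target of the stress response. The lowest was Zmat3/4930429B21Rik, at 74.19. Apaf1/Ikbip counted as uncovered. Apaf1 forms the apoptosome and is induced by p53, and its TSS lay 8 bp from the nearest DHS, in a gap of 236 bp between DHS of 198.52 and 141.4. Polk/Col4a3bp and Xpc/Lsm3 were in both this list and the repair list.

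Lists of mitochondrial and basal functions had few or no uncovered pairs, with intervals that include the 86.9% of all pairs. All 21 pairs of oxidative phosphorylation genes had a covered TSS (lower limit 84.5%), 20 of them over both TSSs (74.0% of all pairs). None held a gap, beside 22.2% of all pairs with one. The share was 12.3% for pairs 1 to 100 bp apart, the class that holds the median spacing of this list of 89 bp. Vmac/Ndufa11 scored 469.38, Atp5c1/Kin 236.45 and Wdr4/Ndufv3 224.98, and the list ran down to 70.88. All 25 pairs with RNA polymerase subunits and general factors had a covered TSS, led by Taf11/Anks1 (299.38) and Taf6/Cnpy4 (288.6), both with a subunit of TFIID, and by Polr3g/Mblac2 (227.59). All 15 pairs with solute carriers were covered at both TSSs, beside the same 74.0%, with Rbmxrt/Slc10a7 highest at 385.69. Of 24 pairs with splicing factors and helicases 23 had a covered TSS, and the highest were 1110038D17Rik/Snrpd3 (436.32), Hnrnpa2b1/Cbx3 (360.81) and Ccdc47/Ddx42 (308.55). Pus3, paired with the testis helicase Ddx25, was 135 bp from the nearest DHS.

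The translation and proteasome lists had 1 or 2 uncovered pairs each, and the intervals of their covered shares include the 86.9% of all pairs. Of 16 pairs of the mitochondrial ribosome 14 had a covered TSS, from 20.68 to 392.68 at Ncapd2/Mrpl51, and the others were Lrrc46/Mrpl10, in a gap of 156 bp, and Mrpl32/Psma2, 3 bp from a DHS. Of 10 pairs named for cytoplasmic ribosomal proteins, a list that also took in the kinase gene Rps6kb1, 9 were covered in one piece at 81.09 to 174.14, and Rnf151/Rps2 was 1201 bp from the nearest DHS. Of 7 pairs with aminoacyl-tRNA synthetases 6 were covered, Lyrm4/Fars2 highest at 132.97, and S100pbp/Yars lay in a gap of 224 bp. Proteasome genes had 5 of 6 pairs covered, Psme2/Rnf31 highest at 258.56.

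Replication-dependent histone genes were in 14 pairs. A TSS was covered in 11 of them (78.6%, 52.4 to 92.4), beside 86.9% of all pairs. A gap lay at 9 of the 14, beside 22.2% of all pairs, and beside 45.9% of pairs over 200 and up to 300 bp apart, the class that holds the median spacing of the histone pairs of 228.5 bp. These genes encode the core histones made in S phase, and 13 of the 14 pairs join histone genes to each other. Hist1h2ac/Hist1h2bc scored 103.43 and 218.49 across 145 bp, Hist1h2bl/Hist1h2ai 84.98 and 179.25 across 132 bp, and Hist1h2an/Hist1h2bp 108.33 and 100.9 across 120 bp. Hist2h2ac/Hist2h2be on chromosome 3 was covered in one piece, with a score of 239.88 and a width of 3672 bp. The testis pair Hist1h2ba/Hist1h2aa had no DHS within 16190 bp. Hist1h2bq/Hist1h2ao and Hist1h2ap/Hist1h2br were also uncovered. Histone genes have near-identical copies, and how reads that fit several copies were treated is not stated, so the values of all these pairs are uncertain.

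The 300 bp around the midpoint of the histone pairs was unlike that of other pairs. It held the TATA word (TATAAA) in 10 of 14 and the NF-Y word (AGCCAAT) in 9 of 14, beside 4.82% and 14.4% of all 789 pairs, and 13.5% and 8.51% of the 300 bp windows of all protein-coding TSSs. Its GC content had a median of 44.0%, against 62.3% over all pairs. Both words are in the Hist1h2an/Hist1h2bp stretch printed above, each on the minus strand. Histone pairs share much sequence with each other, so these counts are not independent.

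In the lists that follow the share of covered pairs lay on either side of the 86.9% over all pairs. Chaperones had 13 of 14 pairs covered, with Dnajb4/Fubp1 highest at 306.77, and the muscle and lens heat shock pair Hspb2/Cryab was 12514 bp from a DHS. Zinc finger genes had 16 of 17 covered, with Zfp277/Dock4 at 222.8, Tubgcp2/Zfp511 at 209.7 and a spacing of 1 bp, and Zfp558/Mbd3l1 without a DHS. Genes of vesicle and Golgi traffic had 11 of 14, and of the 3 uncovered pairs Cntrob/Trappc1 and Rad9b/Vps29 lay in gaps of 175 and 217 bp. Pairs with a gene known only by a clone or model name were covered in 154 of 189 cases (81.5%, 75.3 to 86.4). No gene of the B cell list was in a divergent pair. The lists of other tissues and of collagens and keratins held 2 pairs each, and Col4a4/Col4a3 was the uncovered pair in both. The covered pair of the collagen list, Polk/Col4a3bp, entered by its symbol only, since Col4a3bp encodes a ceramide transfer protein. A few pairs count more than once because a gene has several records, such as Hspa14/Cdnf, Rad17/Taf9 and Bysl/Med20.

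Pairs with no covered TSS and no gap were mostly far from any DHS. In 57 of the 75 the nearest DHS was over 1 kb away, and the median distance was 12514 bp (4365 to 22268). In 39 of 75 no TSS was CpG-rich. The farthest are named here after their values were seen, and Cdh8, Bai3 and Gabrg3 are genes of the nervous system. Cdh8/A330008L17Rik, with a cadherin, was 3527407 bp from a DHS. Galntl6/BC030500 (1111064 bp), Bai3/Gm9884 (1110119 bp) and Gabrg3/Gm9962 (a GABA receptor subunit, 1010974 bp) came next. All of these but Galntl6/BC030500 had 2 CpG-rich TSSs. Others were Ntrk3/Gm9885, a neurotrophin receptor pair at 140001 bp, Plcz1/Capza3, sperm genes at 382670 bp, and Smc1b/Ribc2, with a meiotic cohesin at 88627 bp. The imprinted pair Sgce/Peg10 was also uncovered, but its nearest DHS lay 25 bp away.

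CpG-rich pairs without a covered TSS were of both kinds. Of 57 such pairs 23 lay inside 1 gap and 34 had no gap. Named by smallest spacing, Arl16/Hgs had DHS of 90.34 and 76.11 on its flanks, Tnfaip1/Ift20 68.31 and 65.76, Agtpbp1/Naa35 107.72 and 27.25, Fam134c/Tubg1 95.75 and 84.77, and Cib1/D330012F22Rik 150.3 and 75.91. At Eif3i/2510006D16Rik and Pex11a/Wdr93 a DHS ended 8 and 7 bp from the nearer TSS. Thoc4/Anapc11 was 54 bp away. Of the 10 named in this way, together with S100pbp/Yars, only Ppp1r3d/9030418K01Rik was far from a DHS, at 83617 bp. These 10 do not stand for all 57, which also hold the distant pairs of Cdh8, Bai3 and Gabrg3 named above.

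The sequence of the DHS was searched for 10 short words of promoter factors on both strands. They were GGGCGG for Sp1, CCGGAAG for Ets factors, GCATGCGC for NRF1, AGCCAAT for NF-Y, TGACGTCA for CRE-binding factors, AAGATGG for YY1, CTCGCGAG for ZBTB33, TATAAA for TATA-binding protein, GAGGAAGT for PU.1 and CACGTG for the E-box, which MYC and USF proteins bind. A match describes the letters only and is not evidence of binding. In the central 300 bp of the 737 DHS, the Sp1 word was in 52.6% (49.0 to 56.2), below the 62.3% of DHS over one-way CpG-rich TSSs and above the 18.6% of all DHS. The central GC content was likewise lower than at one-way CpG-rich TSSs, at medians of 61.3% and 66.3%. The Ets word was in 17.1% (14.6 to 19.98), against 15.5% and 4.88%, and the TATA word in 3.66% (2.53 to 5.28), against 2.83% and 11.2%. PU.1, a factor of B and myeloid cells, had its word in 2.04% (1.24 to 3.33), against 2.19% and 3.62%. The intervals of the median score with and without a word overlapped for each of the 10, for example 118.22 with the Sp1 word and 116.47 without.

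Windows of 300 bp placed by the TSSs instead of the peak gave higher shares. Around the midpoint of the 517 pairs covered in one piece, the Ets word was in 31.1% (27.3 to 35.3), against 19.9% (18.7 to 21.2) of the 300 bp windows at one-way CpG-rich TSSs under a DHS and 10.9% of those at all protein-coding TSSs. The windows ran from 250 bp upstream to 50 bp downstream of the TSS in these comparison sets. The YY1 word was in 10.4% (8.09 to 13.4), against 7.30% (6.54 to 8.14) and 6.75%. The Sp1 word was in 65.6% (61.4 to 69.5), below the 75.4% of one-way CpG-rich TSSs (74.0 to 76.7) and above the 43.7% of all TSSs. A midpoint window can hold the start of both genes, which a window at a one-way TSS cannot.

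Pairs with a gap differed from pairs under 1 DHS in the NF-Y and Sp1 words. The NF-Y word was in 23.4% of 175 pairs with a gap (17.8 to 30.2), against 11.6% of pairs under 1 DHS (9.12 to 14.7) and 8.51% of all protein-coding TSSs. Among pairs over 100 and up to 300 bp apart the shares were 28.2% (20.4 to 37.5) and 16.0% (11.5 to 21.8), with intervals that overlap. The Sp1 word was in 78.9% of pairs with a gap (72.2 to 84.3), against 65.6% of pairs under 1 DHS (61.4 to 69.5). Over 100 and up to 300 bp apart its shares were 78.6% (69.8 to 85.5) and 70.6% (63.9 to 76.6), with intervals that overlap. The histone pairs are among those with a gap and share NF-Y words, and their part in the NF-Y share was not tested. Pairs without a DHS or gap had the Ets word in 7 of 75 (9.33%, 4.59 to 18.03).

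**Figure D4:**
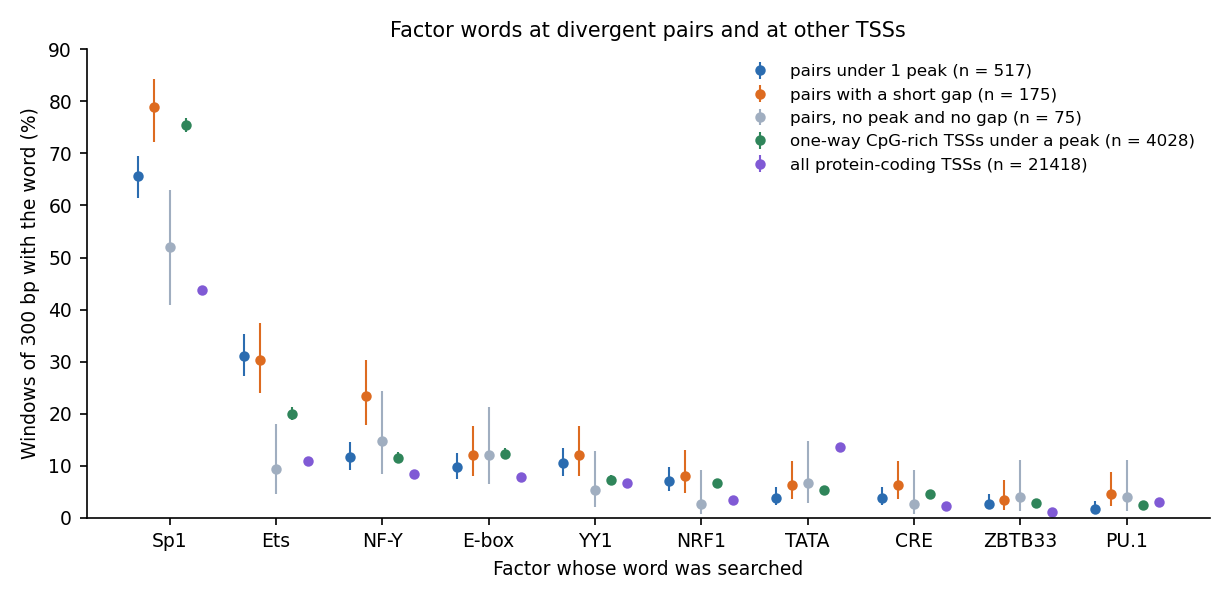
Share of 300 bp windows holding each factor word (vertical axis, percent) in 3 states of divergent pairs, centred on the midpoint, and in windows from 250 bp upstream to 50 bp downstream of one-way CpG-rich TSSs and of all protein-coding TSSs; bars are 95% Wilson intervals. The Ets word stands at 31.1% in pairs under 1 DHS beside 19.9% at one-way CpG-rich TSSs, and the NF-Y word at 23.4% in pairs with a gap.

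Base composition around the midpoint was averaged over pairs whose left and right sides follow the orientation of the assembly. Such an average is near mirrored whatever the shape of single pairs, so it does not show that single pairs are symmetric. One-way TSSs were aligned by gene direction instead. CpG density in the 517 pairs was highest in the bins next to the midpoint, at 8.84 and 8.91 per 100 bp, and fell to 7.25 and 7.44 at 250 to 300 bp on the minus-gene and plus-gene side. At one-way CpG-rich TSSs it was 11.1 per 100 bp beside the TSS, 10.4 at 250 to 300 bp downstream and 4.64 upstream. The excess of G over C, (G − C)/(G + C) on the plus strand, was −0.0690 on the minus-gene side and 0.0992 on the plus-gene side at 100 to 150 bp. The NF-Y word was most frequent in the bins on either side of the midpoint, at 4.06% and 5.03%. At one-way TSSs it was most frequent 50 to 100 bp upstream, at 4.54%.

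**Figure D5:**
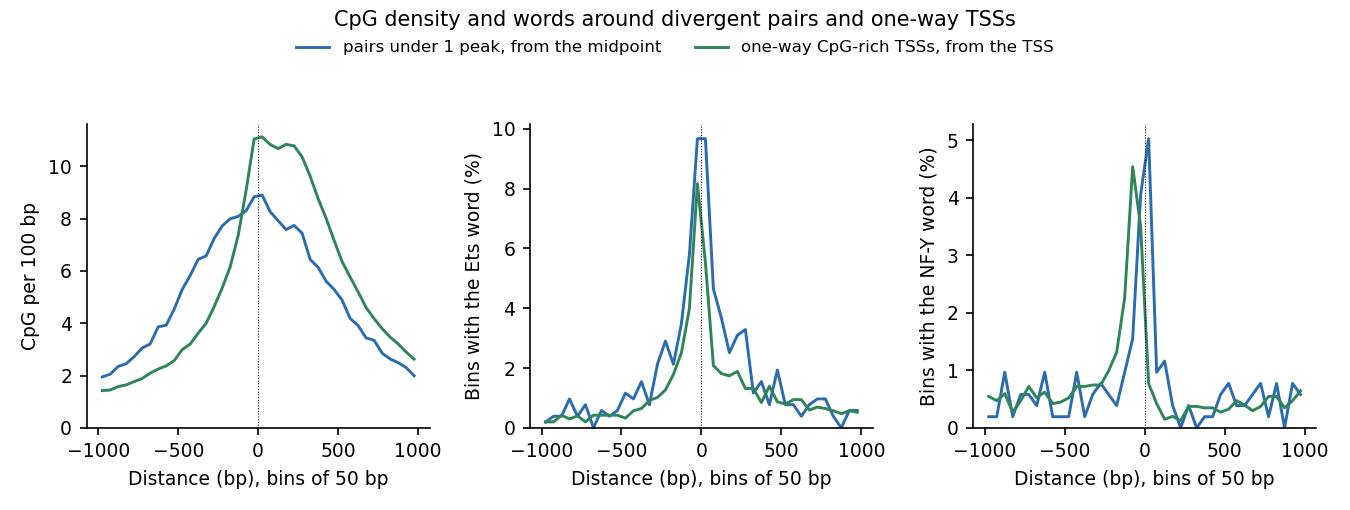
CpG dinucleotides per 100 bp (left) and the share of 50 bp bins with the Ets word (middle) and the NF-Y word (right) by distance (horizontal axis, bp) from the midpoint of 517 pairs under 1 DHS and from 4028 one-way CpG-rich TSSs. At 250 to 300 bp the pairs carry 7.25 and 7.44 CpG per 100 bp on either side, where left and right follow the assembly. One-way TSSs, aligned by gene direction, carry 10.4 downstream and 4.64 upstream at the same distance.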

How the data were processed

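After apoptotic cells had been removed, nuclei were digested with DNase I and small fragments sequenced, from digests the authors picked by signal over noise in qPCR. The submitters' processing notes name BWA (version 0.6.2), SAMtools and the mm9 build. The authors deposited 1 list of peaks with a score per peak. Peak names carry the MACS prefix, while the caller's version and settings and any read filter are stated for the study's ChIP-seq but not for DNaseI, and the scale of the score is not given in the sources used here. The list holds no counts, so the depth is unknown, and a TSS without a DHS is one where none was called. The input library was not analysed here on its own.

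Peaks were set against GENCODE M1 gene records and the NCBI build 37 sequence, within which all peaks lay, except past the end of 1 chromosome. Positions are counted from 1. CpG ratio, words and positions were computed in Python 3.11.15 with numpy 2.4.6, pandas 2.3.3 and scipy 1.17.1, after a check on simulated data. Shares have 95% Wilson intervals and medians 95% binomial order-statistic intervals. No test was made between the regions of 1 library.

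The set of peaks, the 19 gene lists and the rule for named genes were chosen with earlier results of these data known. Named are long-known pairs, the 5 highest, lowest and widest DHS, the 5 widest spacings under 1 DHS, and the 5 highest DHS covering 1 TSS. Added to these are the 3 highest and up to 5 uncovered pairs of each list, and up to 10 CpG-rich pairs without a covered TSS, by smallest spacing. Other names were chosen after their values were seen, and some lists are shown in part. Gene lists were drawn from general knowledge, and most functional lists count a pair when either gene is a member. Some named items are not reported here, though counts include them.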

Additional observations from a re-analysis of the deposited data

How the results depend on the processing

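No result rests on replicates, and the depth of the library is unknown, so the number of DHS missed for lack of reads is unknown too. No paired analysis was possible because there is 1 DNaseI library. Of 94 recomputed values, 29 moved by more than their interval and 2 changed sign. The other 63 moved by less, or, for counts, stayed within 1.5 times, such as the number of DHS, which ranged from 652 to 982. The cause was not tested.

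Merging DHS closer than 500 bp raised the share of pairs with both TSSs covered from 74.0% to 87.7%, the median score to 122.945 and the median width to 1718 bp. Accepting a DHS within 100 bp of the TSS gave 88.5%, 113.54 and 1386.5 bp, and a spacing of up to 2 kb gave 68.6%. The median score minus that of one-way CpG-rich TSSs, 4.72, became 14.81 with transcript TSSs, −2.88 with the stricter CpG class, and 27.7 and 21.2 within the 2 middle width quartiles. The difference in width, −67 bp, became 28.0 with transcript TSSs and −173 with the stricter class. With gaps under 200 bp, an alternative added after seeing the data, 15.5% of pairs had a gap in place of 22.2%, and 23.1% with gaps under 1000 bp.

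Shares of DHS with a word depended on the window. Around the midpoint they were 68.5% for Sp1, 29.7% for Ets, 6.65% for NRF1, 15.7% for NF-Y, 4.75% for CRE, 11.3% for YY1 and 10.7% for the E-box. Over whole DHS they were 86.7% for Sp1, 42.3% for Ets, 10.3% for NRF1, 18.05% for NF-Y, 5.29% for CRE, 28.6% for YY1, 3.93% for ZBTB33, 29.99% for TATA, 8.14% for PU.1 and 28.1% for the E-box.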
